A study of Saccharomyces cerevisiae with 4 samples.

Results

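The strain that lived on Ssa4 as its sole Ssa chaperone was compared with the strain that lived on Ssa1, feature by feature, over the 5776 of 5794 array features with a value on both arrays. The members described are the 706 features whose ratio of Ssa4 to Ssa1 was above 2 (called induced, 296 features or 5.12%) or below 0.5 (called repressed, 410 features or 7.1%). Of these, 701 carry a gene name, 292 induced and 409 repressed. Each strain had 1 array and there are no replicates, so no ratio has an error or a test, and every ratio describes a pair of arrays rather than a pair of conditions.

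Both strains derive from *Saccharomyces cerevisiae* G402, a MATa strain with the kar1-1 allele, the nonsense allele ade2-1, the suppressor SUQ5 and the auxotrophic markers ura3, trp1, lys2, leu2 and his3. All of its chromosomal SSA genes are disrupted, as ssa4::URA3-1f, ssa3::TRP1, ssa2::HIS3 and ssa1::KanMX. A LEU2-marked plasmid supplied Ssa4 in one strain and Ssa1 in the other, in both cases from the SSA2 promoter, and both strains were [psi-], that is, free of the prion form of Sup35. The only stated difference between them is therefore the coding gene on the plasmid. For each array, RNA of 8 extractions of a strain was pooled by the deposited description, whereas the study's methods give fewer extractions and describe overnight growth where the sample labels describe exponential growth. The state of the cultures at harvest is thus not settled, and whether both strains were at the same point of growth cannot be told from the deposited data.

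Ssa proteins are the cytosolic Hsp70 chaperones of yeast. They bind unfolded stretches of other proteins, release them in a cycle driven by ATP hydrolysis, and work with J-proteins, nucleotide exchange factors, Hsp90 and the disaggregase Hsp104. Wild-type cells make Ssa1 and Ssa2 all the time, whereas Ssa3 and Ssa4 appear mainly upon heat or other stress. Ssa proteins also restrain Hsf1, the transcription factor of the heat shock response.

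The label of the Ssa2 array was checked first. SSA2, the gene of another member of the family, read 9.01, 2505, 1.21 and 2.38 on the arrays of Ssa1, Ssa2, Ssa3 and Ssa4. It was at background level in both strains compared here and high only on the Ssa2 array, so no fold is given between the other values. For the same reason SSA2 cannot tell the Ssa1 and Ssa4 arrays apart, and their labels were not checked by it. LEU2, the marker of the plasmid that every strain carried, read 999, 1451, 3229 and 5006 on the 4 arrays in the same order. The Ssa4 array was 5.01 times the Ssa1 array for this marker, and the number of plasmids per cell and the transcription per plasmid cannot be told apart.

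The medians of the Ssa1 and Ssa4 arrays were 201.4 and 201.5 in normalized intensity units. Among the 3656 features of at least 100 units on both arrays 5.91% were induced and 3.28% repressed, and among the features below 100 on 1 or both arrays 3.77% were induced and 13.7% repressed. The calls therefore moved with brightness, as the bar chart by intensity shows. Below a mean of 30 units 2.06% of features were induced and 17.3% repressed, and from 3000 units upwards 14.5% were induced and 2.81% repressed. The median log2 ratio went from -0.40 in the dimmest group to 0.40 in the brightest. A gene group is read below against these shares, and 214 induced and 120 repressed named genes were of at least 100 units on both arrays. At the limit of 2-fold, the induced genes of at least 100 units nearest to it were YLR177W at 2.004 and PIB1 at 2.005, and DAL4 at 1.997 was just outside. On the repressed side HIS5 and FCJ1 at 0.498 were just inside, and TEF4 and RPL8A at 0.501 just outside.

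**Figure D1:**
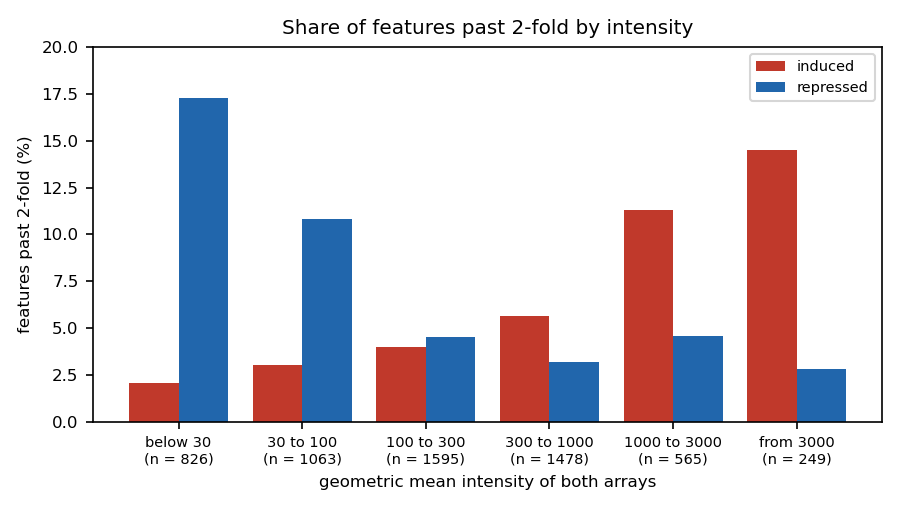
Percentage of features induced (red) and repressed (blue) in Ssa4 relative to Ssa1, by the geometric mean of the intensities on both arrays, with the number of features under each group. Induced features make up 2.06% of the dimmest and 14.5% of the brightest group, and repressed features 17.3% and 2.81%.

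**Figure D2:**
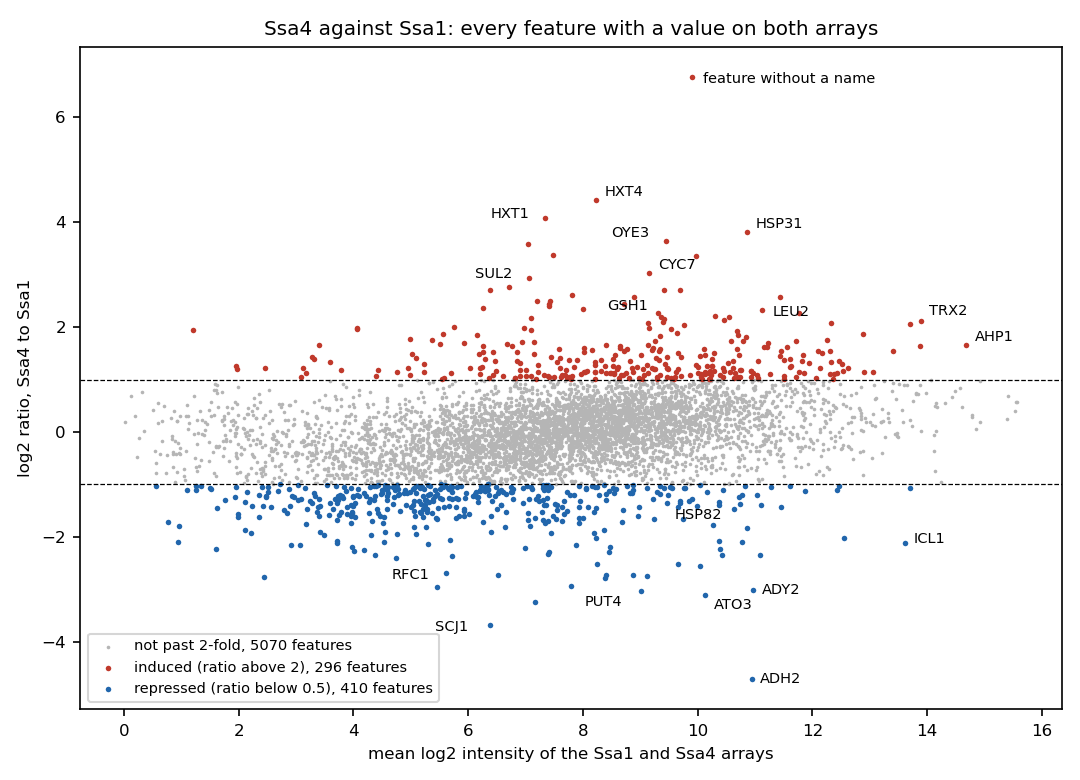
Log2 ratio of Ssa4 to Ssa1 (vertical) against the mean log2 intensity of both arrays (horizontal) for the 5776 features with both values, 1 point each. Dashed lines mark 2-fold, red points are the 296 induced and blue points the 410 repressed features, and the cloud of grey points tilts upwards from left to right.

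Genes were grouped in lists by function. The lists were chosen with earlier results of these data known, so their shares describe and do not test. Names were available only for features past 2-fold in some strain of the study, so a list gene without a name may be 1 of the 4847 unnamed features, 1 of the 7 features whose locus and symbol disagree, or not on the array. Of the unnamed features 4830 had both values and 5 were past 2-fold here. Shares are therefore given over all genes of a list, and no member is called past 2-fold without a name. Where values of related genes are given, cross-hybridization between close copies was not tested, since the probe sequences were not used here.

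Among the genes of at least 100 units on both arrays, HSP31 and OYE3 had the highest ratios. HSP31 codes for a glyoxalase of the DJ-1 family that acts in oxidative and carbonyl stress, and read 498, 3304, 2765 and 7010.1 on the arrays of Ssa1, Ssa2, Ssa3 and Ssa4, a ratio of Ssa4 to Ssa1 of 14.1. OYE3, an NADPH oxidoreductase of the old yellow enzyme family, read 197, 654, 654 and 2457 on the same arrays and had a ratio of 12.5. Both genes were lowest in Ssa1 and highest in Ssa4, with Ssa2 and Ssa3 in between. The next highest were ATG8 (10.2), the ubiquitin-like protein of autophagosome membranes, CYC7 (8.18), the cytochrome c isoform of low-oxygen cells, GRE2 (6.53), a methylglyoxal reductase, and RPL27B (6.53), a large-subunit ribosomal protein. Between the same strains, the study's RT-qPCR gave a far smaller rise for HSP31 and hardly any for ATG8. For OYE3 its rise was larger than on the arrays. VMA13, a subunit of the vacuolar proton pump, read 195, 1156, 1563 and 1158 and was as high on the Ssa2 and Ssa3 arrays as on the Ssa4 array. The study's supplementary tables differ on the array ratios of this gene, so whether this feature is VMA13 is not settled. The rest of the 15 highest were YNL134C (5.92), ISU2 (5.45), AAD16 (5.06), LEU2, MSS116 (4.83), ECM4 (4.79), VID24 (4.66) and PAU16 (4.58). The features printed near ATG8, CYC7 and VMA13 were also higher in Ssa4, as judged on a grid that the feature names imply, and with the median log2 ratio of these neighbours subtracted the ratios were 6.14, 4.76 and 3.60.

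Genes of the thioredoxin system were induced in Ssa4, as far as they were past 2-fold. The system reduces disulfides and peroxides with electrons from NADPH. Of 13 listed genes, 6 were induced and 0 repressed, 46.2% of the list against 5.91% of all features of at least 100 units, and all 6 were of at least 100 units on both arrays. Several of them were bright. The induced share of all features was 11.3% at means of 1000 to 3000 units and 14.5% from 3000 units upwards. TRX2, the cytosolic thioredoxin, read 7303, 13509, 10316 and 31659 on the arrays of Ssa1, Ssa2, Ssa3 and Ssa4, a ratio of 4.34. AHP1, a thiol peroxidase for alkyl hydroperoxides, read 14763, 19143, 27748 and 46685, a ratio of 3.16, and was among the brightest features of the array. In both genes the Ssa4 value stood above those of the other arrays. MXR1, which repairs oxidized methionine, read 431 in Ssa1 and 1768 in Ssa4, a ratio of 4.10. TSA2, a peroxiredoxin, read 880.3 in Ssa1 and 3163 in Ssa4, a ratio of 3.59. SRX1, the sulfiredoxin that restores over-oxidized peroxiredoxins, read 986 in Ssa1 and 3456 in Ssa4, a ratio of 3.51. TRX3, the mitochondrial thioredoxin, had a ratio of 2.48. DOT5, a nuclear thiol peroxidase, was named for its value in Ssa3 and had a ratio of 0.794 in Ssa4. All 6 induced members kept a ratio above 2 in each of the alternatives other than the 3-fold threshold, where 5 did.

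Glutathione genes past 2-fold included more that were induced than repressed. Of 28 listed genes 8 were induced (28.6%) and 3 repressed (10.7%), against 5.12% and 7.1% of all features. ECM4, a glutathione transferase of the omega class, read 1588, 2016, 2948 and 7611 in the order Ssa1 to Ssa4, a ratio of 4.79. GSH1, which catalyses the first step of glutathione synthesis, read 321, 632, 791 and 1434, a ratio of 4.46. Both were lowest in Ssa1 and highest in Ssa4. The dithiol glutaredoxins GRX1 and GRX2 had ratios of 2.49 and 2.20, and GLR1, which reduces oxidized glutathione, had a ratio of 2.03. Below 100 units on the Ssa1 array, the glutathione and peptide transporter OPT1 read 73.4 in Ssa1 and 397 in Ssa4 (5.40), the transferase GTT2 read 64.7 in Ssa1 and 290.5 in Ssa4 (4.49) and the peroxidase GPX2 read 61.4 in Ssa1 and 192 in Ssa4 (3.13). In the opposite direction GRX4, a monothiol glutaredoxin of iron regulation, read 256 in Ssa1 and 107 in Ssa4, a ratio of 0.417, and its paralog GRX3 had a ratio of 0.678, within 2-fold. The dim genes GTO3 and GEX1 had ratios of 0.458 and 0.467. After subtraction of the lowess curve 5 of the 8 were induced and 1 of the 3 repressed, and with an offset of 50 units 0 of the 3 were repressed.

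Superoxide dismutase and its copper chaperone were higher, whereas the catalases were not. SOD1, the copper-zinc superoxide dismutase, read 2032, 1882, 3137 and 4781 on the 4 arrays, a ratio of 2.35. CCS1, which loads copper into Sod1, read 190.2 in Ssa1 and 598 in Ssa4 (3.14), and OXR1, a mitochondrial protein of oxidation resistance, read 1307 in Ssa1 and 2938 in Ssa4 (2.25). CTA1, the peroxisomal catalase, read 302, 103, 237 and 93.1, a ratio of 0.309, and its Ssa2 value was nearly as low as its Ssa4 value. CTT1, the cytosolic catalase, had a ratio of 0.608 and was not past 2-fold in Ssa4. SOD1 and OXR1 ended below 2-fold once the trend with brightness was subtracted as a lowess curve, which left 1 of the 3 induced members of this list, CCS1.

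Oxidoreductases that use NADPH or act on aldehydes formed the list with the largest induced share among the redox genes, 15 of 28 (53.6%), with 2 repressed (7.14%). Among all features 5.12% were induced and 7.1% repressed. Besides OYE3, GRE2 read 265, 492, 695 and 1734 on the 4 arrays and YNL134C, an alcohol dehydrogenase-like protein, read 1138, 2986, 2502 and 6738. Ssa4 was the highest of the 4 arrays in both. ALD3, a cytosolic aldehyde dehydrogenase, read 671 in Ssa1 and 2932 in Ssa4 (4.37), while its neighbour on the chromosome and close copy ALD2 read 468 in Ssa1 and 205 in Ssa4 (0.437). The ALD2 feature lay among neighbours that were also low in Ssa4, and its ratio was 0.985 with their median subtracted, so its call ended there. YML131W had a ratio of 4.21, the butanediol dehydrogenase BDH1 of 3.09, the formaldehyde dehydrogenase SFA1 of 2.99, and the reductases YDL124W, YJR096W and YPR1 of 2.93, 2.69 and 2.17. Of the aryl-alcohol dehydrogenase family, whose members are close in sequence, AAD16 (5.06), AAD14 (2.13), AAD4 (5.65) and AAD6 (2.42) were induced, AAD3 (0.394) was repressed and AAD10 (1.12) was within 2-fold. ARI1, an aldehyde reductase, was below 100 units on the Ssa1 array and had a ratio of 3.28.

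The supply of NADPH was represented by a split list. ZWF1, glucose-6-phosphate dehydrogenase, read 1641, 2205, 3108 and 4775 on the 4 arrays, a ratio of 2.91, and GND2, the minor 6-phosphogluconate dehydrogenase, read 3984 in Ssa1 and 8879.7 in Ssa4, a ratio of 2.23. The non-oxidative enzymes RKI1 and TKL1 went the other way, at 935 in Ssa1 and 383 in Ssa4 (0.4097) and at 399 in Ssa1 and 148 in Ssa4 (0.371). In all, 3 of 18 genes were induced (16.7%) and 2 repressed (11.1%), against 5.12% and 7.1% of all features. The remaining induced gene, PRS2, which makes phosphoribosyl pyrophosphate, had a ratio of 2.22 and lay among features higher in Ssa4, so that its ratio was 1.05 with the neighbours subtracted. After subtraction of the lowess curve 1 of the 3 induced genes was past 2-fold.

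Some export and detoxification genes were also induced. Of 21 transporters and regulators 7 were induced (33.3%) and 3 repressed (14.3%), against 5.12% and 7.1% of all features. FLR1, a drug exporter under the control of the oxidative stress factor Yap1, read 326, 416, 536 and 1395, a ratio of 4.27. ATR1, another exporter of the same family, read 246 in Ssa1 and 721 in Ssa4 (2.93), and CAD1, a Yap-family factor, read 439 in Ssa1 and 1074 in Ssa4 (2.45). RTA1 and RSB1, membrane proteins of the same family, had ratios of 2.34 and 2.17. The repressed members were TPO4 (0.367), a polyamine exporter, PDR10 (0.399), an ABC transporter, and the dim factor PDR8 (0.448). With the median of the other 3 arrays as reference 3 of the 7 stayed induced and 0 of the 3 repressed. CRS5, a copper metallothionein, belongs to the list of metal genes and read 3963 in Ssa1 and 14513 in Ssa4, a ratio of 3.66.

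Part of the genes of sulfate assimilation and methionine uptake was induced, many of them dim. Of 32 listed genes 13 were induced (40.6%) and 1 repressed (3.12%), and 6 of the 13 were of at least 100 units on both arrays. Of all features 5.12% were induced and 7.1% repressed. CYS3, which makes cysteine from cystathionine, read 345, 952, 621 and 1222 on the 4 arrays, a ratio of 3.54. MUP1, the high-affinity methionine permease, read 839.8, 2135, 1522 and 2795, a ratio of 3.33. STR3, MET22, MET5 and MET30 had ratios of 2.99, 2.13, 2.08 and 2.04. Below 100 units on the Ssa1 array, the sulfate permease SUL2 read 48.4, 142, 156 and 369, a ratio of 7.63, and the permease MUP3 read 72.4 in Ssa1 and 410.0 in Ssa4 (5.66). MET2, MET32, MET16, MET8 and MET3 had ratios of 5.29, 3.94, 3.84, 2.55 and 2.10. MET17, the sulfhydrylase, went the same way in Ssa2 (3.27) and Ssa3 (2.16) but had a ratio of 0.972 in Ssa4. CBF1, a DNA-binding factor of the pathway, was dim and repressed (0.424). With the median of the other 3 arrays as reference in place of Ssa1, 5 of the 13 were past 2-fold, and with an offset of 50 units 7 were.

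**Figure D3:**
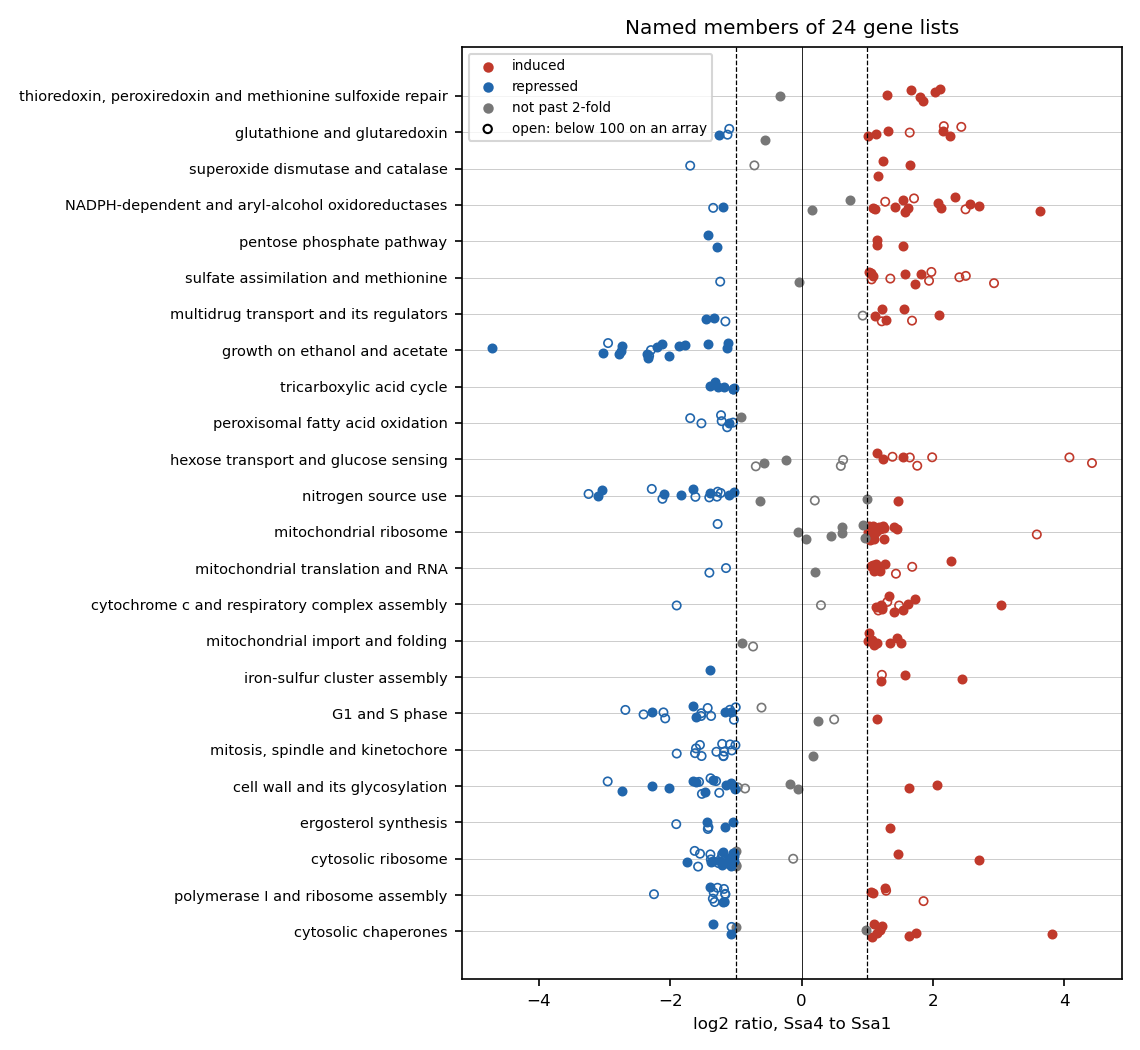
Log2 ratio of Ssa4 to Ssa1 of each named member of 24 gene lists, 1 point per gene, spread vertically within a list for legibility. Red points were induced, blue points repressed and grey points within 2-fold, open points were below 100 units on 1 or both arrays, and dashed lines mark 2-fold. The 18 named genes of growth on ethanol and acetate all lie left of the lower line, and 6 of the 7 named thioredoxin genes lie right of the upper line.

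Genes of growth on ethanol and acetate had the largest repressed share of the lists. These genes are shut off in glucose and opened when yeast turns to ethanol, through the glyoxylate cycle, gluconeogenesis and acetyl-carnitine transfer. Of 28 listed genes 18 were repressed (64.3%) and 0 induced, against 7.1% repressed among all features, and 15 of the 18 were of at least 100 units on both arrays. ADH2, the alcohol dehydrogenase that oxidizes ethanol, read 10062, 2148, 3867 and 384 on the arrays of Ssa1, Ssa2, Ssa3 and Ssa4. Its ratio of 0.0381 was the lowest of all features of at least 100 units, a value in Ssa4 26.2-fold lower than in Ssa1, and Ssa2 and Ssa3 lay in between. ADY2, an acetate transporter, read 5699.7, 3027, 2299 and 703, a ratio of 0.123. ICL1, isocitrate lyase of the glyoxylate cycle, read 26197, 20566, 16310.4 and 5998, a ratio of 0.229, and its Ssa4 value was below those of the other arrays. MLS1, the malate synthase of the same cycle, fell below 100 units on the Ssa4 array, at 616 in Ssa1 and 79.9 in Ssa4 (0.1298). ACS1, the acetyl-CoA synthetase of non-fermenting cells, read 758 in Ssa1 and 166 in Ssa4 (0.218). SFC1, which exchanges succinate for fumarate across the mitochondrial membrane, read 4909 in Ssa1 and 969.7 in Ssa4 (0.198).

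The carnitine branch and the propionate enzymes followed. YAT1 and YAT2, carnitine acetyltransferases, had ratios of 0.248 and 0.148, and CRC1, the mitochondrial acetylcarnitine carrier, had a ratio of 0.291. PDH1 and CIT3, both of the methylcitrate route for propionate, read 875 in Ssa1 and 127 in Ssa4 (0.145) and 874 in Ssa1 and 132 in Ssa4 (0.1504). The CIT3 feature had low neighbours, and its ratio was 0.2599 with their median subtracted. The transcription factor SIP4, which turns on gluconeogenic genes, read 633 in Ssa1 and 173 in Ssa4 (0.273). FBP1 and MDH2, the gluconeogenic fructose-1,6-bisphosphatase and malate dehydrogenase, were the least affected of the bright members, with ratios of 0.456 and 0.462. RGI2 and REE1 had ratios of 0.196 and 0.374, and ACH1 and YGR067C, below 100 units in Ssa4, of 0.2003 and 0.204. All 18 stayed below 0.5 after quantile normalization, after subtraction of the lowess curve, with an offset of 50 and with the neighbours subtracted, and 16 did with the median of the other 3 arrays as reference.

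Fewer genes of the tricarboxylic acid cycle and of peroxisomal fatty acid oxidation were repressed, and by less. Of 21 genes of the cycle and its carriers 7 were repressed (33.3%), all of at least 100 units, and 0 induced. The repressed share of all features of at least 100 units on both arrays was 3.28%. ACO1, aconitase, read 4466, 1396, 4425 and 2193, a ratio of 0.491, and its Ssa2 value was lower than its Ssa4 value. SDH1 and LSC1, subunits of succinate dehydrogenase and succinyl-CoA ligase, had ratios of 0.442 and 0.486. ODC1, a carrier of 2-oxoglutarate, read 3576 in Ssa1 and 1366 in Ssa4 (0.382), and SDH9, MAE1 and YHM2 had ratios of 0.414, 0.4003 and 0.485. Of 17 genes of fatty acid oxidation 7 were repressed (41.2%), but only PXA1 (0.466) was of at least 100 units on both arrays. The repressed share of all features below 100 units on 1 or both arrays was 13.7%. POX1, the acyl-CoA oxidase, read 264 in Ssa1 and 91.9 in Ssa4 (0.348). FAA1, FAA4, IDP3 and DCI1 had ratios of 0.431, 0.428, 0.456 and 0.485, and CTA1 is also in this list. Of these 7 genes, 3 were repressed after subtraction of the lowess curve, 2 with an offset of 50 units and 3 with the median of the other 3 arrays as reference.

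Some hexose transporter and glucose sensing genes went the other way. Of 29 listed genes 9 were induced (31%) and 0 repressed, against 5.12% and 7.1% of all features. HXT4 and HXT1, hexose carriers whose genes respond to glucose, had the highest ratios of all named features but were below 100 units on the Ssa1 array. HXT4 read 64.8, 153, 89.5 and 1391 on the 4 arrays, a ratio of 21.5, and HXT1 read 39.5, 106, 120.4 and 668, a ratio of 16.9. On both, the Ssa4 array stood apart from the other arrays, and the HXT1 ratio was 10.2 with the neighbours subtracted. The study's RT-qPCR, however, gave hardly any change of HXT1 between Ssa1 and Ssa4. MTH1 and STD1, paired regulators of hexose transporter genes, read 63.4 in Ssa1 and 252 in Ssa4 (3.97) and 22.6 in Ssa1 and 76.6 in Ssa4 (3.39). HXK1, a hexokinase, read 6390.0, 7435, 11756 and 18626, a ratio of 2.91. EMI2, a hexokinase-like protein, had a ratio of 2.22. HXT6, HXT11 and MIG2, a repressor of the glucose response, had ratios of 2.36, 3.14 and 2.61. HXT7, almost identical to HXT6, had a ratio of 1.51 in Ssa4 and of 6.15 in Ssa3. By the study's RT-qPCR HXT7 was past 2-fold in Ssa4 and within 2-fold in Ssa3. HXT2, HXT3 and HXT14 were within 2-fold. Only 3 of the 9 induced genes were of at least 100 units on both arrays, and 5 of the 9 were past 2-fold with the median of the other 3 arrays as reference. Of 21 genes of glycolysis and fermentation only GPM1, phosphoglycerate mutase, was past 2-fold, at 1706 in Ssa1 and 772 in Ssa4 (0.453).

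Some genes for poor nitrogen sources were repressed. Yeast uses these permeases and degrading enzymes when preferred sources such as ammonia or glutamine run low, or when amino acids are the source. Of 53 listed genes 16 were repressed (30.2%) and 1 induced (1.89%), and 8 of the 16 were of at least 100 units on both arrays. Of all features 7.1% were repressed and 5.12% induced. The repressed share was 3.28% among features of at least 100 units on both arrays and 13.7% among the dimmer ones. PUT4, the proline permease, read 1483, 534, 746 and 180.3 on the arrays of Ssa1, Ssa2, Ssa3 and Ssa4, a ratio of 0.122. ATO3, a plasma membrane protein linked to ammonium export, read 3291, 1469, 1464 and 383, a ratio of 0.117. Both were lower on the Ssa2 and Ssa3 arrays than on the Ssa1 array, and lowest on the Ssa4 array. GDH2, the glutamate dehydrogenase that releases ammonium, read 3619, 3409, 3384 and 847, a ratio of 0.234, and was low on the Ssa4 array alone. ARO10 and ARO9, the decarboxylase and transaminase of the route from aromatic amino acids to fusel alcohols, had ratios of 0.2800 and 0.106, the latter at 442 in Ssa1 and 46.7 in Ssa4. BAT2, the cytosolic branched-chain transaminase, read 1519.9 in Ssa1 and 484 in Ssa4 (0.318). DIP5 and TAT1, amino acid permeases, had ratios of 0.383 and 0.463, and DAL2 of allantoin breakdown had a ratio of 0.491. Below 100 units on an array were PUT1 (0.4098), CPS1 (0.206), ALP1 (0.2304), DUR3 (0.326), CAN1 (0.378), DAL7 (0.413) and ASP3-1 (0.426). CHA1, the serine and threonine deaminase, was the exception past 2-fold, at 1014 in Ssa1 and 2795 in Ssa4 (2.76). DAL4, also in this list, was higher in Ssa4 as well and just within 2-fold (1.997). With an offset of 50 units 8 of the 16 stayed below 0.5. Against the median of the other 3 arrays 11 did, and DAL7, which was about as low in Ssa2 and Ssa3, had a ratio of 1.16.

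**Figure D4:**
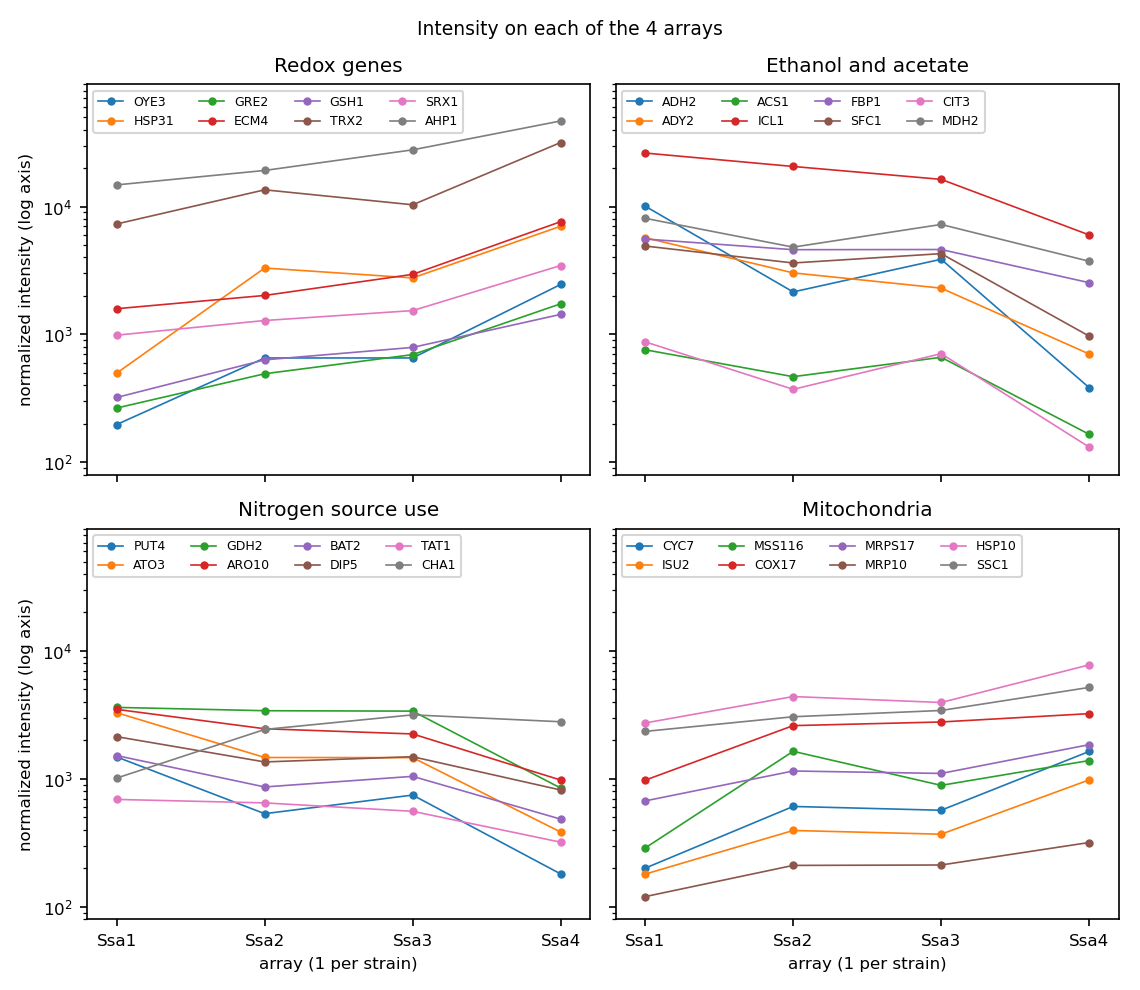
Normalized intensity on a log axis for 8 genes of each of 4 groups on the 4 arrays, 1 array per strain, with lines that join the values of a gene and stand for no order between strains. The Ssa4 value is the highest of the 4 for each redox gene and the lowest for each ethanol and acetate gene shown, whereas MSS116 is highest in Ssa2 and CHA1 in Ssa3.

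Amino acid synthesis genes were mixed. Of 28 genes of arginine, lysine and leucine synthesis 6 were repressed (21.4%) and 2 induced (7.14%), against 7.1% and 5.12% of all features. ARG1, argininosuccinate synthetase, read 1326 in Ssa1 and 493 in Ssa4 (0.372), LYS12 read 390.3 in Ssa1 and 156 in Ssa4 and ILV3 read 517 in Ssa1 and 238 in Ssa4 (0.4595). ARG4, LEU9 and ARG80 had ratios of 0.382, 0.3905 and 0.482. The induced members were LEU2, the plasmid marker, and LYS20, a homocitrate synthase, which read 3752, 971, 6169.7 and 9247 on the 4 arrays. LYS20 had a ratio of 2.46 in Ssa4 and of 0.259 in Ssa2.

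The lists of mitochondrial protein synthesis, assembly and import held more induced than repressed genes, though most of their members were not called. The shares to set beside these lists are 5.91% induced and 3.28% repressed, over all features of at least 100 units on both arrays. Of 75 genes of the mitochondrial ribosome 18 were induced (24%) and 1 repressed (1.33%), and 17 of the 18 were of at least 100 units on both arrays. Their changes were small. MRPS17 read 672, 1151, 1102 and 1849 on the 4 arrays, a ratio of 2.75, and MRP10 read 119.9, 210.3, 212 and 318, a ratio of 2.65. Ssa2 and Ssa3 lay between Ssa1 and Ssa4 in both. MRPL44, MRPL38, MRP17, MRPL24, MRP2, MRPL39 and MRPS16 had ratios from 2.19 to 2.39, and RSM27, YML6, MRPS12, MRPL49, RTC6, MRPL33, MRPS5 and MRP49 from 2.03 to 2.15. MRPL6 was dim on the Ssa1 array alone, at 38.00, 373, 506 and 455, and its ratio of 11.98 in Ssa4 stood beside 9.81 in Ssa2 and 13.3 in Ssa3. The study's RT-qPCR gave far smaller rises of MRPL6 in these strains. RSM23 was the repressed member (0.413). This count depended on the processing, with 4 of the 18 past 2-fold after subtraction of the lowess curve, 8 after quantile normalization, 11 with the neighbours subtracted and 2 with the median of the other 3 arrays as reference.

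Factors of mitochondrial RNA and translation showed 10 of 38 genes induced (26.3%) and 2 repressed (5.26%). MSS116, the RNA helicase that splices mitochondrial introns, read 288, 1641, 889 and 1389.5, a ratio of 4.83, and was higher still in Ssa2. By the study's RT-qPCR its ratio in Ssa4 was smaller and within 2-fold. IFM1, GUF1, MSK1 and MSD1, of translation and tRNA charging, had ratios of 2.42, 2.08, 2.29 and 2.13. CBP3 and CBP6, which act on cytochrome b, had ratios of 2.26 and 2.14, and QRI5 of 2.19. MRS1 and CBP1 were dim, and their ratios of 3.22 and 2.71 in Ssa4 were below those in Ssa2 (3.85 and 3.30) and Ssa3 (4.40 and 3.94). MIP1, the mitochondrial DNA polymerase, and FMT1 were dim and repressed (0.378 and 0.451). With the median of the other 3 arrays as reference, 1 of the 10 induced members was past 2-fold.

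Cytochrome c and the assembly factors of the respiratory complexes showed 14 of 35 genes induced (40%) and 1 repressed (2.86%). CYC7 read 200.1, 608, 568 and 1636 on the 4 arrays. COX17, the copper chaperone of cytochrome oxidase, read 976, 2606, 2783 and 3233, a ratio of 3.31, and was nearly as high in Ssa2 and Ssa3. CYC3 and CYT2, the heme lyases of cytochrome c and c1, had ratios of 3.09 and 2.65. The cytochrome oxidase factors PET100, COX23, COX14, CMC1, PET191 and COX11 had ratios of 2.92, 2.53, 2.34, 2.33, 2.31 and 2.20, and ATP11, of the ATP synthase, had a ratio of 2.30. PET117, COX5B and MZM1 were below 100 units on the Ssa1 array (2.80, 2.47 and 2.25). ATP10 was dim and repressed (0.268). Only 2 of the 14 were past 2-fold with the median of the other 3 arrays as reference, whereas 12 were after subtraction of the lowess curve.

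Import and folding in mitochondria showed 8 of 37 genes induced (21.6%) and 0 repressed, all 8 of at least 100 units. Among all features 5.91% of those of at least 100 units were induced, and 14.5% of those with a mean from 3000 units upwards. HSP10, the co-chaperonin of the matrix, read 2733 in Ssa1 and 7783 in Ssa4 (2.85), MDJ1, the matrix J-protein, read 2266 in Ssa1 and 5797 in Ssa4 (2.56) and SSC1, the matrix Hsp70, read 2349 in Ssa1 and 5185 in Ssa4 (2.21). MDM35 had a ratio of 2.74. TIM13 and TIM10, small chaperones of the intermembrane space, and TOM7 and TOM6, small subunits of the outer membrane translocase, had ratios of 2.15, 2.11, 2.04 and 2.02. After subtraction of the lowess curve 3 of the 8 were past 2-fold, and 1 was with the median of the other 3 arrays as reference. In the list of iron-sulfur cluster assembly 4 of 20 genes were induced (20%) and 1 repressed (5%). ISU2, a scaffold protein for cluster assembly, read 179.8, 394, 369 and 981, a ratio of 5.45. DRE2 and TAH18, partners in the cytosolic branch, had ratios of 2.99 and 2.34, and ISA2 of 2.32. RLI1, an iron-sulfur protein of ribosome recycling, was repressed, at 267 in Ssa1 and 102 in Ssa4 (0.382).

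Repressed cell cycle genes were mostly dim, and most listed genes were not called. Of 39 genes of the G1 and S phases 16 were repressed (41%) and 1 induced (2.56%), with 5 of the 16 of at least 100 units on both arrays. Among features below 100 units 13.7% were repressed, which is the share to set beside the dim members. RNR1, the large subunit of ribonucleotide reductase, read 313, 351, 193 and 102 on the arrays of Ssa1, Ssa2, Ssa3 and Ssa4, a ratio of 0.327. POL30, the sliding clamp of DNA replication, read 679, 693, 688 and 302, a ratio of 0.445. Both were low on the Ssa4 array, with RNR1 also at a lower value in Ssa3. CLN2, a G1 cyclin, read 229 in Ssa1 and 109 in Ssa4 (0.475), and SVS1 and TOS6, cell surface proteins controlled by G1 factors, read 1071 in Ssa1 and 340.4 in Ssa4 (0.318) and 772 in Ssa1 and 159 in Ssa4 (0.205). Dim members were CSI2 (0.189), YOX1 (0.233) and YHP1 (0.385), both homeobox repressors, TOS4 (0.237), MBP1 (0.372), the DNA-binding subunit of the MBF complex, PRI1 (0.347), a primase subunit, GIC1 (0.347), CTF18 (0.4697), AXL2 (0.4900) and CDC21 (0.4996). RFC1, the large subunit of the clamp loader, had a ratio of 0.156 but lay among features that were low in Ssa4, and its ratio was 0.5500 with their median subtracted. TAH11, a replication licensing factor, was induced (2.22). With an offset of 50 units 5 of the 16 remained below 0.5.

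Of 31 genes of mitosis, the spindle and the kinetochore 13 were repressed (41.9%) and 0 induced, and all 13 were below 100 units on both arrays. Of all features, 17.3% of those with a mean below 30 units were repressed, and 10.8% of those from 30 to 100 units. NBL1, of the Aurora kinase complex, read 45.3 in Ssa1 and 12.1 in Ssa4 (0.268), the spindle pole protein SPC110 read 25.5 in Ssa1 and 11.04 in Ssa4 (0.433) and the cyclin CLB4 read 26.7 in Ssa1 and 9.30 in Ssa4 (0.348). BBP1, MPS3, NKP2, KAR3, MTW1, SLK19, BUB2, SHS1 and CDC14 had ratios from 0.325 to 0.498. With an offset of 50 units 0 of the 13 were past 2-fold, and after quantile normalization or subtraction of the lowess curve 5 were. Of the histone genes HHT1 and HHF1, a linked pair for histones H3 and H4, read 3212 in Ssa1 and 8135 in Ssa4 (2.53) and 238 in Ssa1 and 571 in Ssa4 (2.40), whereas HTB2, of histone H2B, read 350.0 in Ssa1 and 119 in Ssa4 (0.339). With the neighbours subtracted the HTB2 ratio was 0.576, and its call ended.

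The listed cytosolic chaperones and heat shock proteins, not all of which are known to work beside Ssa proteins, did not move together. Of 37 listed genes 8 were induced (21.6%) and 3 repressed (8.11%), against 5.12% and 7.1% of all features. The repressed share was thus near that of all features. HSP31 led, followed by CPR1, the cyclophilin, at 1836 in Ssa1 and 6146 in Ssa4 (3.35), and HSP30, a membrane protein of stress, at 8503 in Ssa1 and 26526 in Ssa4 (3.12). SGT2, which hands tail-anchored proteins to the Get pathway, had a ratio of 2.34. APJ1, a J-protein, SSE2, a nucleotide exchange factor of Hsp70, and CPR6, a cyclophilin of Hsp90, had ratios of 2.29, 2.21 and 2.15, and SSE1, the major exchange factor, was just within 2-fold (1.98). HSP82, the inducible Hsp90, read 1124, 1121, 1439.7 and 442, a ratio of 0.393, and was low on the Ssa4 array alone. SSB1, an Hsp70 of the ribosome, read 1279.7 in Ssa1 and 607 in Ssa4 (0.474), and its close copy SSB2 had a ratio of 0.503, just outside the limit. After subtraction of the lowess curve 4 of the 8 were induced. In the endoplasmic reticulum SCJ1, a J-protein partner of the luminal Hsp70, read 296 in Ssa1 and 23.2 in Ssa4, a ratio of 0.0783 and the lowest among named features below 100 units. Its neighbours were low as well, and with their median subtracted its ratio was 0.258. The study's RT-qPCR gave a smaller drop of SCJ1 in Ssa4. This drop was still past 2-fold, as were its rises of HSP31 and MRPL6, whereas ATG8, HXT1 and MSS116 were within 2-fold. By RT-qPCR ADH2, ARO9, TOS6, CLN2, YOX1, YOR387C, CBP6, LYS20 and YNR014W were past 2-fold in the same direction as on the arrays.

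A minority of the genes for cytosolic ribosomal proteins was repressed. Of 133 genes 25 were repressed (18.8%) and 2 induced (1.5%), and 15 of the 25 were of at least 100 units on both arrays, where 3.28% of features were repressed. RPL16B read 2586, 2039, 2579 and 1091 on the 4 arrays, a ratio of 0.422, and its Ssa4 value was well below the other values. RPL7A had the lowest ratio (0.299), RPS23B had 0.392, RPL43B 0.432 and ASC1, the ribosomal scaffold protein, 0.466. The exceptions were both copies of RPL27, RPL27B at 325, 980.0, 992 and 2123 and RPL27A at 2203, 4218, 6120.4 and 6094 on the 4 arrays, with ratios of 6.53 and 2.77. After subtraction of the lowess curve 20 of the 25 were repressed, with the neighbours subtracted 14 and with an offset of 50 units 11. Of 25 genes of RNA polymerase I and ribosome assembly 11 were repressed (44%) and 5 induced (20%), against 7.1% and 5.12% of all features. Only 2 of the 11 were of at least 100 units on both arrays, and 13.7% of features below that were repressed. RPA190, the largest subunit of the polymerase, read 349.6 in Ssa1 and 152 in Ssa4 (0.435), and most of the others were below 100 units. RRN11, SRD1, BCD1, NOP16 and ARX1 were induced, with ratios of 3.63, 2.41, 2.12, 2.08 and 2.44. After subtraction of the lowess curve 4 of the 11 were repressed, with the median of the other 3 arrays as reference 2 and with an offset of 50 units 1.

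Cell wall genes past 2-fold were mostly repressed. Of 44 cell wall and mannosylation genes 17 were repressed (38.6%) and 2 induced (4.55%), 10 of the 17 of at least 100 units on both arrays. Of all features 7.1% were repressed and 5.12% induced, so the induced share was near that of all features. The repressed share was 3.28% among features of at least 100 units on both arrays and 13.7% among the dimmer ones. SIM1, a SUN-family protein, read 1204, 1075, 785 and 182 on the 4 arrays, a ratio of 0.151, and its relative UTH1 read 603, 645, 918 and 149, a ratio of 0.247. Both were low on the Ssa4 array. GAS1, a glucanosyltransferase, read 873 in Ssa1 and 286 in Ssa4 (0.328), SCW4, a glucanase-like protein, read 2634 in Ssa1 and 951 in Ssa4 (0.361) and FKS1, the glucan synthase, read 807 in Ssa1 and 383 in Ssa4 (0.475). OCH1, which starts the mannan outer chain, had a ratio of 0.319, and PRY2, SAG1 and KNH1 of 0.395, 0.452 and 0.494. CDA2, a chitin deacetylase of spores, read 122 in Ssa1 and 15.8 in Ssa4 (0.129). The induced members were SPI1, a small wall protein of stress, at 6534 in Ssa1 and 27248 in Ssa4 (4.17), and HPF1, a mannoprotein, with a ratio of 3.11. With an offset of 50 units 8 of the 17 were repressed. In the ergosterol list 6 of 27 genes were repressed (22.2%) and 1 induced (3.7%), against 7.1% and 5.12% of all features. ERG6, ERG5 and MVD1 had ratios of 0.369, 0.446 and 0.486, the dim genes ERG25, ERG13 and CYB5 of 0.267, 0.375 and 0.372, and ARE2, which esterifies sterols, of 2.56.

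Phosphate and metal genes completed the lists. Of 16 phosphate genes 5 were repressed (31.2%) and 0 induced, against 7.1% and 5.12% of all features. PHO89, a sodium and phosphate cotransporter, read 1927, 1987, 1177 and 338, a ratio of 0.175, and PHO5, the secreted acid phosphatase, read 497, 323, 216 and 111, a ratio of 0.224. PHO3, PHO4 and PHO13 were below 100 units in Ssa4 (0.285, 0.361 and 0.426). Of 34 zinc, copper and iron genes 6 were induced (17.6%) and 4 repressed (11.8%), against 5.12% and 7.1% of all features. ARN1, a siderophore transporter, FTH1, a vacuolar iron transporter, and IZH1 had ratios of 2.86, 2.25 and 2.19, and the dim CUP1-1 and IZH2 of 2.57 and 2.09. ZPS1, induced by zinc shortage in wild-type yeast, read 2900.0, 6161, 1258 and 615, a ratio of 0.212, with the highest value in Ssa2. SMF2, a manganese transporter, had a ratio of 0.381, and VEL1 and YOR387C, a pair of near-identical dim genes, of 0.376 and 0.256. Among 27 genes of the general stress response and trehalose 9 were induced (33.3%) and 0 repressed, against 5.12% and 7.1% of all features. The induced share of all features was 11.3% at means of 1000 to 3000 units and 14.5% from 3000 units upwards. After subtraction of the lowess curve 6 of the 9 were past 2-fold, and 5 were with the median of the other 3 arrays as reference. TSL1 and TPS1, of the trehalose synthase, read 1329 in Ssa1 and 4304 in Ssa4 (3.24) and 3705 in Ssa1 and 7506 in Ssa4 (2.03). DAK1 and DAK2, dihydroxyacetone kinases, had ratios of 2.56 and 3.91, HOR2 of 3.27, MOH1 of 2.25, SIP18 of 2.21 and DDR48 of 2.11.

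The lists hold 328 of the 701 named genes past 2-fold, and 373 are in none. The remaining genes among the 15 lowest of at least 100 units were in no list. YAR068W read 2572, 4752, 931 and 435 on the 4 arrays, a ratio of 0.169, and ICS2 read 731, 228, 551 and 127, a ratio of 0.174. Neither has a well-known role, and both were lower in Ssa4 than on the other arrays. The 15 lowest otherwise held ADH2, ATO3, PUT4, ADY2, PDH1, YAT2, CIT3, SIM1, PHO89, RGI2, SFC1, TOS6 and ZPS1, which are described above. Among genes below 100 units on an array, the 5 highest were HXT4, HXT1, MRPL6, YNR014W (10.4) and SUL2, and the 5 lowest SCJ1, ARO9, CDA2, MLS1 and XKS1, the xylulokinase, at 14.3 in Ssa1 and 2.08 in Ssa4 (0.146).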

How the data were processed

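Amplified RNA labelled with Cy5 from each of the 4 strains was hybridized to 1 oligonucleotide array of the whole yeast genome. The deposited values are linear, normalized intensities. The authors took the median foreground of each spot, discarded spots not above the blanks, removed the mean background and set each array to a common median. No replicate arrays exist, so the number of arrays limits the precision and no test was made. Ratios of Ssa4 to Ssa1 were formed without an offset or filter, and the limits were ratios of 2 and 0.5.

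Features were named where all 4 intensities matched 1 of 956 rows of the study's gene list to a relative tolerance of 1e-05, which gave 947 names. Only names were taken from that list. All 956 rows matched, and 0 matched with the columns shifted. The R64 gene table, used for symbols alone, holds 936 of the loci. In 7 names locus and symbol disagree.

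The members and gene lists were chosen with earlier results of these data known. Named genes are list members past 2-fold, with those that reach 100 on both arrays first, then the 15 highest and 15 lowest of these, the 5 highest and lowest below 100, exceptions within lists, SSA2 and LEU2. The 10 alternatives were quantile normalization, equal array medians, a lowess curve (fraction 0.4) subtracted, a 3-fold threshold, an offset of 50, a minimum of 100 on 1 array or on both, absent values replaced by the array's lowest, the median of the other 3 arrays as reference, and the median log2 ratio of neighbours subtracted. Neighbours are features 1, 14 and 15 positions away in 1 of 32 blocks of a grid that the feature names imply and the deposited data do not state, with at least 3 of 6 present. These distances were picked after the values were seen. Some list members past 2-fold are counted but not reported here by name. Probe and promoter sequences were not used here, and planned motif counts were not made. The counting was tested on simulated data. Python 3.11.15, numpy 2.4.6, pandas 2.3.3 and statsmodels 0.14.6 were used.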

Additional observations from a re-analysis of the deposited data

Results flagged for a closer look

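In 7 named genes the ratio to Ssa1 was past 2-fold one way in Ssa4 and past 2-fold the other way in Ssa2 or Ssa3. These differences were not tested, since each strain had 1 array, and all of the ratios share the Ssa1 array. LYS20 had a ratio of 0.259 in Ssa2 and of 2.46 in Ssa4. ZPS1 had a ratio of 2.12 in Ssa2 and of 0.212 in Ssa4, and the dim pair VEL1 and YOR387C had 2.10 and 2.96 in Ssa2 against 0.376 and 0.256 in Ssa4. GPM1 had a ratio of 2.91 in Ssa3 and of 0.453 in Ssa4. YCL042W read 83.00, 36.3, 186 and 18.9 on the arrays of Ssa1, Ssa2, Ssa3 and Ssa4, with ratios of 2.25 in Ssa3 and 0.228 in Ssa4. YBL113C read 7.68, 4.84, 15.4 and 3.70 on the same arrays, with ratios of 2.01 in Ssa3 and 0.482 in Ssa4.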

How the results depend on the processing

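The count of induced features was 296 and that of repressed features 410. A 3-fold threshold gave 82 and 104, and an offset of 50 gave 193 and 115. With the median of the other 3 arrays as reference 121 features were induced. Repressed features numbered 194 with at least 100 on 1 of both arrays and 120 with at least 100 on both. Under the other alternatives both counts stayed within 1.5 times. Of the 701 named genes, 695 kept their call with equal array medians, 470 after quantile normalization, 460 after subtraction of the lowess curve and 503 of 687 with the neighbours subtracted. With the median of the other 3 arrays as reference, 404 kept it and 9 had a ratio on the other side of 1, namely BET5 (0.931), MRS1 (0.835), CBP1 (0.821), PUS6 (0.695), MRX21 (0.913), KAR5 (1.01), YIL134C-A (1.16), FDH1 (1.45) and DAL7 (1.16). With the neighbours subtracted NTR2 did (1.003). Of 33 counts of list members called, 31 moved by over 1.5 times with a 3-fold threshold, 16 each with the offset, with at least 100 on both arrays and with the median of the other 3 arrays as reference, 11 after subtraction of the lowess curve, 9 after quantile normalization and 7 each with the neighbours subtracted and with at least 100 on 1 of both arrays. The cause of these differences was not tested. No paired analysis was possible because each strain had 1 array, and no array could be left out.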

Other observations

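The genes of this paragraph were chosen after their values were seen and belong to no list. The other genes of the pathways named were not counted. VID24, a receptor subunit of the GID ubiquitin ligase that marks gluconeogenic enzymes for breakdown in glucose, read 584, 1119, 983 and 2719 on the arrays of Ssa1, Ssa2, Ssa3 and Ssa4, a ratio of 4.66. GID10, an alternative receptor of the same ligase, had a ratio of 2.61, and UBC8, its ubiquitin-conjugating enzyme, of 2.24. Of autophagy and the vacuole, ATG8 had a ratio of 10.2, the vacuolar aminopeptidase APE1 of 2.08 and DAP2 of 3.31. Among the tRNA synthetases of the cytosol, the lysine, tyrosine and leucine enzymes KRS1, TYS1 and CDC60 had ratios of 0.494, 0.478 and 0.383. PMA1, the proton pump of the plasma membrane, read 562, 524, 688 and 250.4, a ratio of 0.446, and its close copy PMA2 had a ratio of 0.264. ACS2, the acetyl-CoA synthetase of growth on glucose, had a ratio of 0.354. INO1, of inositol synthesis, had a ratio of 0.307.

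The feature with the highest ratio of all has no name here. It read 91.9, 121, 166 and 10024 on the arrays of Ssa1, Ssa2, Ssa3 and Ssa4, a ratio of 109. The other 4 unnamed features past 2-fold had ratios of 3.16, 2.88, 2.13 and 0.340. For 7 named features the locus and the symbol of the name belong to different genes in the current gene table, all of them past 2-fold, and these were left out of the lists and not described by function.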
